A study of Mus musculus with 16 samples.

Results

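The genes described here are 10 members of the Notch pathway, 4 receptors (Notch1, Notch2, Notch3 and Notch4), 2 ligands (Jag1 and Dll1) and 4 transcriptional targets (Hes1, Hey1, Hey2 and Heyl). They were taken by symbol from a table of 27179 genes, which held all 10. RNA was sequenced from 4 populations of cells sorted by flow cytometry for PDGFRb, a platelet-derived growth factor receptor carried by mural cells and adipose progenitors, taken from white adipose tissue around the epididymis in 7-day-old C57BL/6 mice. The populations were mesothelial-like cells (MLCs), smooth muscle cells (SMCs), adipocyte precursor cells (APCs) and fibro-inflammatory progenitors (FIPs), with 4 libraries each and 16 in all. No genetic change or treatment is given in the labels for any of them, the 4 populations share strain, age and depot, and the labels state neither the other sort markers nor how many animals were used or pooled. The p-values below therefore speak only for the variation among these 16 libraries, part or all of which may be technical.

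Notch receptors are single-pass membrane proteins that are cut when a ligand of the Jagged or Delta-like family on a neighbouring cell binds them. The freed intracellular part enters the nucleus, joins the DNA-binding protein RBPJ and a Mastermind co-activator, and switches on genes of the Hes and Hey families, which code for basic helix-loop-helix repressors. In vessel walls NOTCH3 is the receptor known for smooth muscle cells and pericytes, NOTCH1 and NOTCH4 are known for endothelium, and in mouse fat Notch signalling is known to restrain the browning of white adipocytes.

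Because RBPJ acts at the promoters of its targets, those of the members were searched for the core of its binding site, TGGGAA, on both strands. RefSeq promoter sequences of GRCm38 were at hand for 7 of the 10 members, and the window ran from 250 bases before the start of the gene to 10 bases into it. Those of Hes1, Hey1 and Heyl were not at hand and were not searched, so Hey2 was the only target gene searched. Hey2 is shown because it was the 1 member of those 7 whose window held the core, and Notch1 and Notch3 because their transcripts followed each other across the populations. Capitals mark the core or its reverse complement, and all 3 sequences run 5′ to 3′ on the minus strand, on which these genes lie.
Hey2, chr10:30842774-30843033: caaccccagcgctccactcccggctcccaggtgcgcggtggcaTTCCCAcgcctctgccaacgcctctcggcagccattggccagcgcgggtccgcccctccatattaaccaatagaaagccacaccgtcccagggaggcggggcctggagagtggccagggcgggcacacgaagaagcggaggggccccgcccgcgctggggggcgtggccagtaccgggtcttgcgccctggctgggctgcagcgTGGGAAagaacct
Notch1, chr2:26503813-26504072: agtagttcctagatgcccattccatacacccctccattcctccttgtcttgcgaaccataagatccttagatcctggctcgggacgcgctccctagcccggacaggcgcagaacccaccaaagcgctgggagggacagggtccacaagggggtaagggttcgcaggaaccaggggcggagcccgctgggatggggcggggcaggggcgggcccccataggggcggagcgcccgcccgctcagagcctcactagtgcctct
Notch3, chr17:32166881-32167140: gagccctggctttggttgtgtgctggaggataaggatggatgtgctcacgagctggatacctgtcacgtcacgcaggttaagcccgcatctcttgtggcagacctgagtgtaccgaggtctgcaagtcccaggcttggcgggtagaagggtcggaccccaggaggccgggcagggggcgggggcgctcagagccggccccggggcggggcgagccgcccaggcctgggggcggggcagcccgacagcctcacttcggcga
In Hey2 the core stood 207 bases before the start in the reverse orientation, and again from 3 bases before the start in the forward orientation. Both copies also matched the longer form GTGGGAA, which includes the shorter one. Of 32851 promoter windows of the same length, 22.4% held TGGGAA and 5.58% held GTGGGAA. A match is a string of letters and not a measured binding site.

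The libraries held between 9.20 and 27.5 M reads, with a median of 21.6 M, and SMCs replicate 3 and APCs replicate 4 were the shallowest. Levels are normalized counts, the reads of a gene divided by the authors with 1 factor per library. Markers of the labelled cell types followed the labels in part. The summed level of 8 mesothelial markers was 125859 to 129853 normalized counts in MLCs and 9286 to 14774 in SMCs. It was 3829 to 4311 in APCs and 2975 to 3534 in FIPs. In MLCs and SMCs all 8 markers had a mean of at least 100 normalized counts. In APCs and in FIPs only 1 did, Wt1, which made up most of the mesothelial sum there. The summed level of 8 contractile markers was 4522 to 5079 in MLCs and 6795 to 12063 in SMCs. It was 1687 to 5215 in APCs and 1776 to 2084 in FIPs. SMCs thus had the highest contractile sum, led by Acta2, while Myh11, smooth muscle myosin, was alike in MLCs (1288 ± 79.9) and SMCs (1262 ± 412). SMCs also carried mesothelial markers and Pdgfra, a progenitor and fibroblast receptor, at 23838 ± 1968 normalized counts. Levels with ± are means ± SD over 4 libraries. Pparg, the master regulator of adipocyte formation, was highest in APCs (1282 ± 56.3), and the sum of 8 FIP markers, led by Fn1, was 117223 to 131035 in MLCs and 99231 to 159693 in SMCs, and 106264 to 154394 in APCs and 589055 to 642708 in FIPs. Of these 8, Dpp4 was higher in MLCs (8805 ± 405) than in FIPs (2053 ± 275). Pdgfrb, the gene of the sorted receptor, was at 457 ± 28.0 in MLCs, against 2678 or more in every library of the other populations. In bulk samples, fewer cells of a type and less RNA per cell cannot be told apart.

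The receptors fell into 2 kinds. Notch1 and Notch3 were highest in APCs, lower and overlapping in SMCs and FIPs, and lowest in MLCs, while Notch2 was abundant in all 4 populations and Notch4 was low in all. A gene is said to rise or fall where limma's Benjamini-Hochberg adjusted p over the 15024 genes tested was under 0.05 and the change was at least 2-fold, and log2 fold changes are on the scale of log2(normalized count + 1), the first population minus the second. All 10 members passed the filter on low values (10 or more normalized counts in at least 4 libraries), and 8 of them changed in at least 1 of the 6 pairs of populations, where 42.5% of all genes tested did.

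Notch1, a receptor of endothelium and of many progenitor cells (Entrez gene 18128; GRCm38 chromosome 2, 26457902 to 26503822, protein-coding), was measured at 88.0, 78.6, 76.7 and 107 normalized counts in MLCs and at 843, 713, 901 and 882 in SMCs. In APCs it was at 4195, 4747, 4053 and 2673, and in FIPs at 764, 995, 824 and 835. Every APC library lay above all others and every MLC library below, and the SMC and FIP libraries overlapped. Notch1 fell in MLCs against APCs, with a log2 fold change of -5.45 ± 0.14 (± SE; limma adjusted p = 3.68e-17) and rose in APCs against FIPs by 2.17 ± 0.14 (adjusted p = 3.69e-10). Between SMCs and FIPs the difference was -0.03, with a 95% interval from -0.33 to 0.27 (adjusted p = 0.863) and 0.19 with libraries scaled to equal totals. A difference of 2-fold lay outside that interval in both directions.

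Notch3, the receptor known for vascular smooth muscle and pericytes (Entrez gene 18131; chromosome 17, 32120820 to 32166896), followed the same order. It was at 138, 142, 129 and 123 in MLCs, 2111, 1373, 1729 and 1710.5 in SMCs, 4812, 4321, 4879 and 3531 in APCs, and 1689.8, 1649, 1954 and 1715 in FIPs. Its level in SMCs was below that of every APC library (log2 fold change -1.35 ± 0.11, adjusted p = 6.5e-09) and overlapped that of FIPs (-0.03, 95% interval -0.26 to 0.20, adjusted p = 0.833, and 0.19 with libraries scaled to equal totals). MLCs lay far below, by -3.68 ± 0.11 against SMCs (adjusted p = 5.49e-16) and by -5.02 ± 0.11 against APCs (adjusted p = 2.94e-18). The sum of 8 pericyte markers, set beside Notch3, was 1514 to 1669 in MLCs and 2923 to 3348 in SMCs, and 1838 to 2163 in APCs and 1032 to 1172 in FIPs, so it was highest in SMCs, and its part in the Notch3 levels was not tested.

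Notch2, a widely used receptor (Entrez gene 18129; chromosome 3, 98013538 to 98150367), measured 5979, 5925, 6234 and 5826 in MLCs and 5573, 5121, 5737 and 4908 in SMCs. It was at 4156, 4312, 4104 and 3280.3 in APCs and at 5764, 6409.6, 6206 and 5953 in FIPs. APCs were the lowest population with no overlap, but by less than the fold limit in each pair. The log2 fold change was 0.60 ± 0.07 for MLCs against APCs (adjusted p = 5.32e-07) and -0.62 ± 0.07 for APCs against FIPs (adjusted p = 1.06e-06). MLCs and FIPs, the neighbours at the top, overlapped (-0.02 ± 0.07, adjusted p = 0.812), and this sign turned to 0.31 with libraries scaled to equal totals.

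Notch4, best known from endothelium (Entrez gene 18132; chromosome 17, 34564286 to 34588543), rested on 30 to 104 reads per library. Its normalized counts were 46.9, 26.2, 42.0 and 56.3 in MLCs and 81.1, 76.8, 64.1 and 106 in SMCs. They were 79.4, 71.5, 70.1 and 60.5 in APCs and 45.5, 55.5, 41.1 and 32.6 in FIPs. Every SMC and APC library lay above every MLC and FIP library, although no pair reached the fold limit (SMCs against FIPs 0.90 ± 0.22, adjusted p = 0.00234; MLCs against SMCs -0.95 ± 0.22, adjusted p = 0.00104). These values were close to the limit and past it in some settings. For MLCs against SMCs the value was -1.01 without MLCs replicate 1, -1.09 without MLCs replicate 4 and -1.06 without SMCs replicate 3. For SMCs against FIPs it was 1.01 without SMCs replicate 3, 1.02 without FIPs replicate 2 and 1.11 with libraries scaled to equal totals, but 0.31 with quantile normalization (adjusted p = 0.261).

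**Figure D1:**
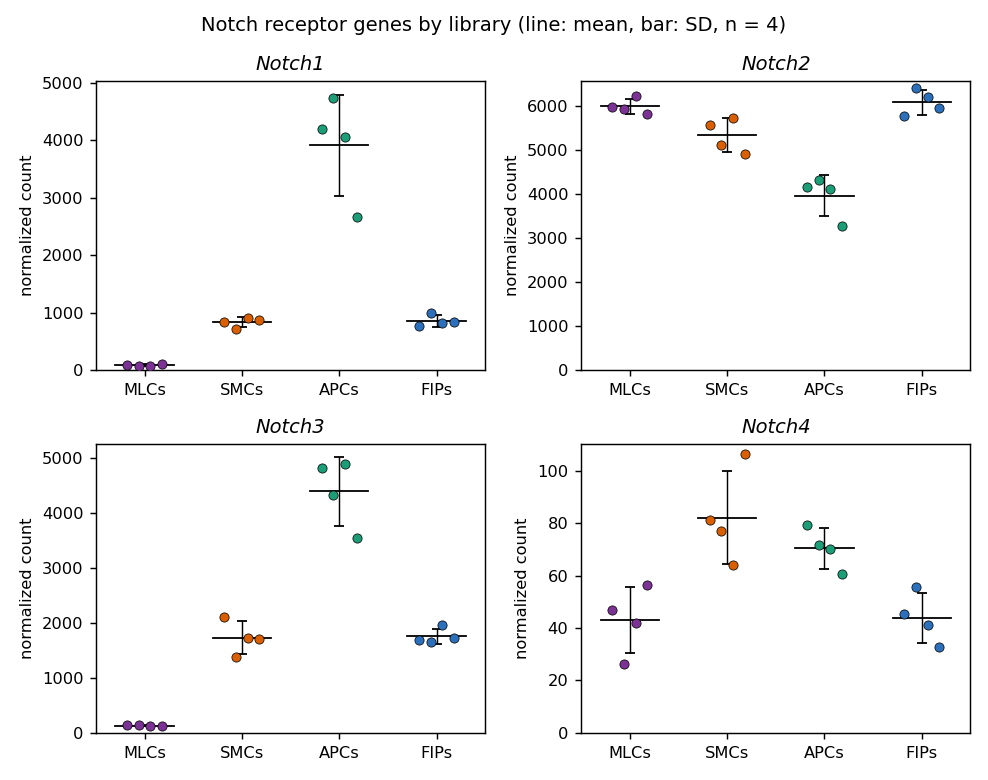
Normalized counts (y axis) of the 4 Notch receptor genes in each library of MLCs, SMCs, APCs and FIPs (x axis), where points are libraries, lines the means and bars the SD of 4 libraries. For Notch1 the APC libraries sit between 2673 and 4747 and the MLC libraries between 76.7 and 107, and APCs replicate 4 is the lowest APC point in all 4 panels.

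Since Notch1 and Notch4 are also endothelial genes, 12 endothelial markers were set beside them. Their summed level was 4880.3 to 5879 normalized counts in MLCs and 3732 to 4528 in SMCs. It was 1182 to 1781 in APCs and 7945 to 8850.5 in FIPs. The sum was led by Kdr and Esam in MLCs, by Cdh5 and Tek in SMCs and by Tek in APCs and FIPs. Cdh5, coding for VE-cadherin, was at 1330.1 to 2270.1 in SMCs and at 188 or less in every library of the other populations, and Tek reached 7827 ± 401 in FIPs. Kdr was at 2485 ± 281 and Esam at 2444 ± 92.9 in MLCs. Pecam1 was at 49.0 to 161 in MLCs and 8.54 to 54.2 in SMCs, and 79.6 to 146 in APCs and 63.5 to 123 in FIPs. Vwf and Egfl7 had their highest means in APCs (25.0 ± 19.6 and 66.2 ± 17.4), overlapping with MLCs. Robo4 and Erg had theirs in MLCs (28.5 ± 12.8 and 10.7 ± 3.18), and Emcn in SMCs (34.4 ± 10.3). Tie1 was at 99.5 or less and Cldn5 at 134 or less in every library. The single markers thus differed in order from their sum, and the part of endothelial RNA in the Notch levels was not tested.

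Set against each other per length, the receptors made up a different mixture in each population. Levels were divided by the length of the longest protein-coding GENCODE M21 transcript, 9488 bases for Notch1, 10500 for Notch2, 8016 for Notch3 and 6591 for Notch4. Notch2 gave 94.6% ± 0.495 of the summed receptor level per kb in MLCs and 61.7% ± 3.04 in SMCs, and 28.1% ± 1.27 in APCs and 64.8% ± 0.815 in FIPs, as mean ± SD over 4 libraries each. Notch3 gave 2.76% ± 0.197 in MLCs and 26.1% ± 2.78 in SMCs, and 40.7% ± 2.57 in APCs and 24.4% ± 1.72 in FIPs. Notch1 gave 1.54% ± 0.273 in MLCs and 10.7% ± 0.854 in SMCs, and 30.4% ± 2.99 in APCs and 10.1% ± 0.874 in FIPs, and Notch4 was at 2.04% or less in every library. The sum itself was 603 ± 15.2 normalized counts per kb in MLCs and 824 ± 68.8 in SMCs, and 1348 ± 203 in APCs and 895 ± 40.9 in FIPs. SMCs and FIPs thus had nearly the same receptor mixture, MLCs had little but Notch2, and in APCs the mean shares of Notch1, Notch2 and Notch3 lay between 28.1% and 40.7%.

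**Figure D2:**
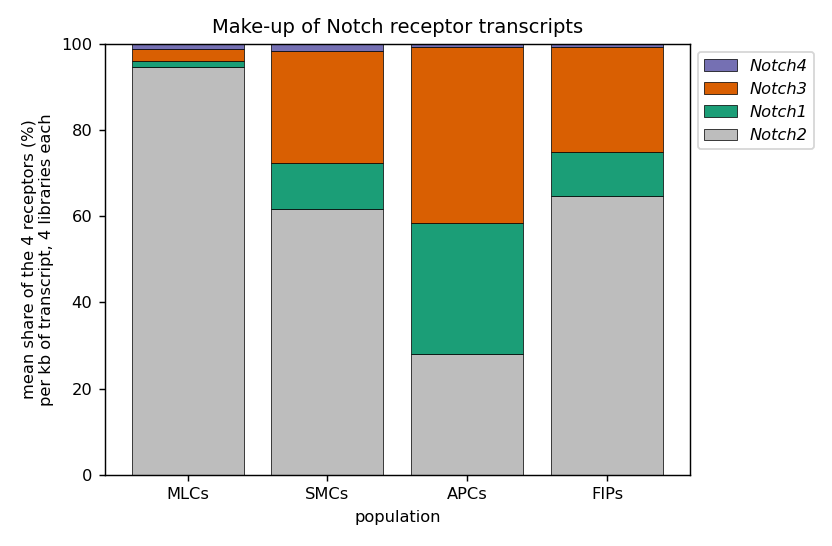
Mean share of each Notch receptor in the summed receptor level per kb of transcript (y axis, percent) in MLCs, SMCs, APCs and FIPs (x axis), with 4 libraries each. Notch2 fills 94.6% of the MLC bar and 28.1% of the APC bar, and the SMC and FIP bars are divided nearly alike.

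The 2 ligands ran in opposite directions in MLCs. Jag1, a Jagged ligand (Entrez gene 16449; chromosome 2, 137081451 to 137116520), was at 401, 416, 412 and 440.2 normalized counts in MLCs and 942, 983, 841 and 954 in SMCs. It was at 1010.0, 1070.4, 1042 and 1001 in APCs and 1092, 1292, 1225 and 1331 in FIPs. The order was FIPs, APCs, SMCs, MLCs, with no overlap between neighbours, but only MLCs stood off by more than 2-fold. Jag1 fell in MLCs, with log2 fold changes of -1.15 ± 0.07 against SMCs (adjusted p = 1.1e-11), -1.30 against APCs and -1.56 against FIPs. The other 3 pairs gave -0.15 for SMCs against APCs (adjusted p = 0.0623), -0.41 for SMCs against FIPs and -0.26 for APCs against FIPs. The last of these was -0.01 with libraries scaled to equal totals (adjusted p = 0.911), so the order of FIPs and APCs depended on the scaling.

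Dll1, a Delta-like ligand (Entrez gene 13388; chromosome 17, 15367354 to 15376932), was at 242, 154, 181 and 222 in MLCs and 32.6, 32.0, 61.9 and 40.9 in SMCs. It was at 70.2, 55.4, 58.6 and 27.7 in APCs and 16.8, 25.0, 17.2 and 11.8 in FIPs. MLCs stood above all other libraries, FIPs below, and SMCs and APCs overlapped (-0.31 ± 0.28, adjusted p = 0.373). Dll1 rose in MLCs by 2.26 ± 0.28 against SMCs (adjusted p = 9.28e-07), by 1.95 against APCs and by 3.45 against FIPs, and in APCs against FIPs by 1.50 ± 0.28 (adjusted p = 0.000263). The rise in SMCs against FIPs, 1.19 ± 0.28 (adjusted p = 0.00157), rested on 130 reads in SMCs and 75 in FIPs, was 0.46 with quantile normalization (adjusted p = 0.174) and was 0.99 without SMCs replicate 3, and the part of the mesothelial markers in SMCs was not tested. Per kb of transcript Jag1 exceeded Dll1 in every population, least in MLCs (74.4 ± 2.92 for Jag1 and 55.8 ± 11.1 for Dll1) and most in FIPs (220.1 ± 18.7 for Jag1 and 4.94 ± 1.52 for Dll1).

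Among the targets, Heyl had the order of Notch1 and Notch3. Heyl, coding for a Hey-family repressor known from vascular smooth muscle (Entrez gene 56198; chromosome 4, 123233556 to 123249870), was at 12.6, 15.2, 9.59 and 16.7 normalized counts in MLCs and 254, 212, 158 and 127 in SMCs. It was at 485, 447, 517 and 422 in APCs and 117, 156, 166 and 118 in FIPs. APCs stood above and MLCs below all other libraries. Heyl fell in MLCs against APCs (-5.03 ± 0.20, adjusted p = 2.29e-14) and in SMCs against APCs (-1.36 ± 0.20, adjusted p = 1.4e-05), and rose in APCs against FIPs by 1.75 ± 0.20 (adjusted p = 7.74e-07). SMCs and FIPs overlapped (0.40, 95% interval -0.03 to 0.82, adjusted p = 0.106).

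Hes1, a widely expressed target (Entrez gene 15205; chromosome 16, 30065357 to 30067796), did not have that order. It was at 143, 101, 114 and 119.7 in MLCs, 356, 399, 243 and 316 in SMCs, 268, 277, 302 and 292 in APCs, and 197, 199.7, 234 and 215 in FIPs. MLC libraries were the lowest, and SMC and APC libraries overlapped (0.18 ± 0.13, adjusted p = 0.249). Hes1 fell in MLCs against SMCs (-1.44 ± 0.13, adjusted p = 1.24e-08) and against APCs (-1.25), while the value against FIPs, -0.82, stayed under the fold limit and was -1.12 with quantile normalization and -0.49 with libraries scaled to equal totals. Per kb Hes1 was higher than Heyl in every population, 81.5 ± 11.9 for Hes1 and 2.98 ± 0.692 for Heyl in MLCs, and 194 ± 10.5 for Hes1 and 103 ± 9.21 for Heyl in APCs.

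Hey1 and Hey2, partners of Heyl in the Hey family that are best known from arterial endothelium and heart, were low. Hey1 (Entrez gene 15213; chromosome 3, 8663359 to 8667038) was at 32.7, 25.4, 33.2 and 18.5 in MLCs, 48.4, 52.3, 61.9 and 69.5 in SMCs, 71.8, 67.5, 77.2 and 88.2 in APCs, and 33.6, 30.5, 41.1 and 42.6 in FIPs. As for Heyl, its mean was highest in APCs and lowest in MLCs. Unlike those of Heyl, its libraries overlapped between SMCs and APCs and between MLCs and FIPs. Hey1 fell in MLCs against APCs (-1.47 ± 0.20, adjusted p = 2.87e-06) and against SMCs (-1.08 ± 0.20, adjusted p = 0.000122). In APCs against FIPs it rose by 1.03 ± 0.20 (adjusted p = 0.000399). The last 2 values sat at the fold limit: -0.91 for MLCs against SMCs without MLCs replicate 4 and -0.99 without SMCs replicate 4, and 0.94 for APCs against FIPs without FIPs replicate 2, 0.96 without APCs replicate 4 and 0.99 without FIPs replicate 1.

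Hey2 (Entrez gene 15214; chromosome 10, 30832359 to 30842783), whose promoter holds the RBPJ core shown above, was at 22.6, 22.0, 18.4 and 25.5 in MLCs and 27.4, 18.1, 23.5 and 9.20 in SMCs. In APCs it was at 11.8, 9.06, 10.7 and 12.1, and in FIPs at 0, 1.85, 0.955 and 6.35. FIPs had 10 reads over 4 libraries, and the 0 of FIPs replicate 1 allows up to 2.97 normalized counts (3 reads). FIPs lay below every other library, APC libraries were all below those of MLCs, and MLCs and SMCs overlapped (0.26 ± 0.47, adjusted p = 0.638). Summed over libraries, Hey2 reads were 9.33 times higher in MLCs than in FIPs (95% counting interval 4.88 to 20.0) and 4.60 times higher in APCs than in FIPs (2.28 to 10.2), where the interval covers counting error only. 7 of the 10 FIP reads came from FIPs replicate 4, without which the ratios were 23.0 (7.66 to 113) and 11.3 (3.64 to 57.0). In limma the rises were 3.19 ± 0.47 for MLCs (adjusted p = 5.78e-06), 2.92 for SMCs and 2.23 for APCs against FIPs, and the size depended on the pseudocount, from 4.36 at 0.1 to 1.58 at 8 for MLCs against FIPs. For APCs against FIPs it was 0.91 at a pseudocount of 8, under the fold limit. Hey2 was thus low in every population, but MLCs, where Notch1, Notch3 and Heyl were lowest, were not its lowest population.

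**Figure D3:**
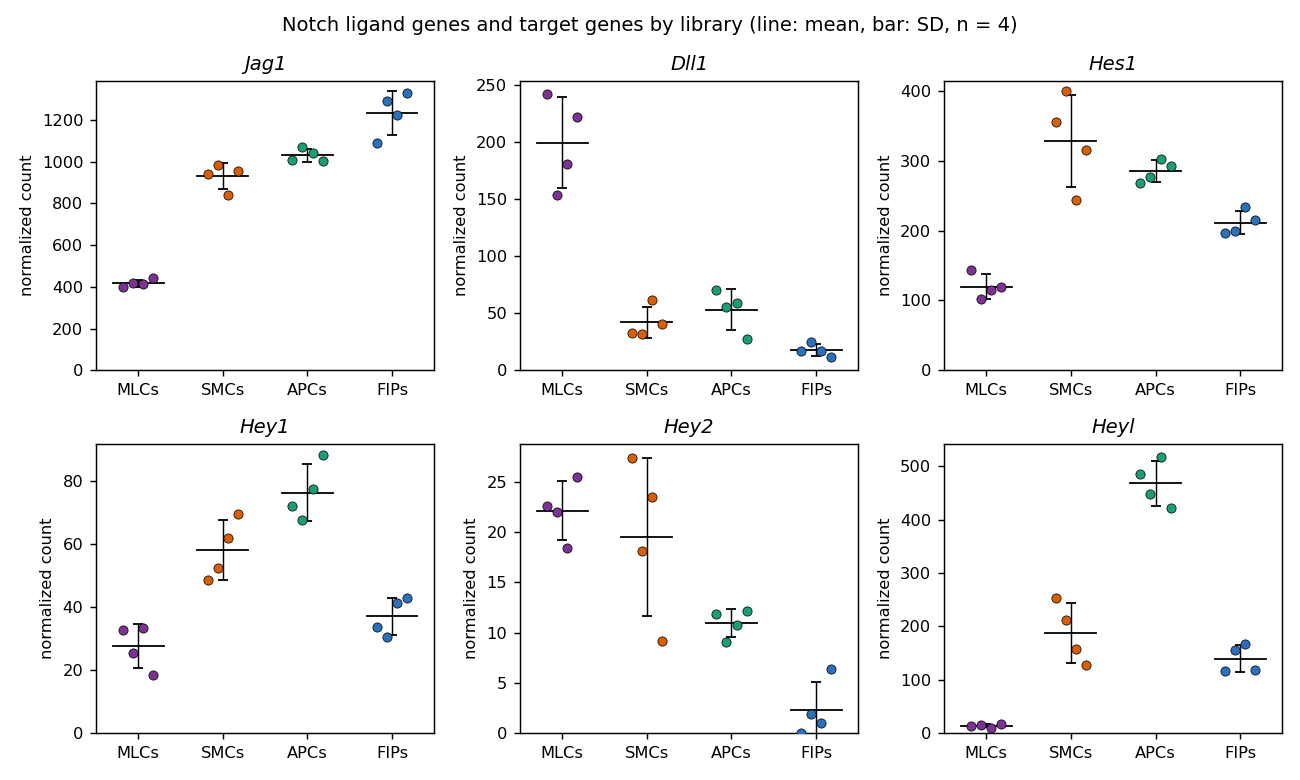
Normalized counts (y axis) of the ligand genes Jag1 and Dll1 and the target genes Hes1, Hey1, Hey2 and Heyl in each library of MLCs, SMCs, APCs and FIPs (x axis), where points are libraries, lines the means and bars the SD of 4 libraries. Dll1 is highest in MLCs at 154 to 242, Heyl in APCs at 422 to 517, and the FIP libraries of Hey2 reach 6.35 at most.

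Counted over pairs, the members changed between MLCs and SMCs in 7 cases of 10, 1 higher and 6 lower in MLCs, where 27.9% of all genes changed, 14.4% higher and 13.5% lower. Between MLCs and APCs 7 of 10 changed, again 1 higher and 6 lower in MLCs, against 29.6% of all genes, 17.7% higher and 11.8% lower. Between MLCs and FIPs 6 changed, 2 higher and 4 lower in MLCs, against 31.1% of all genes, 18.6% higher and 12.5% lower. In those 3 pairs Dll1 was the member that rose, joined by Hey2 against FIPs. Between SMCs and APCs 3 members changed, Notch1, Notch3 and Heyl, all lower in SMCs, against 17.2% of all genes and 3.79% called higher in APCs. Between SMCs and FIPs 2 changed, Dll1 and Hey2, both higher in SMCs, against 17.9% of all genes and 13.3% called higher in SMCs, and the count was 1 with a pseudocount of 8, with a filter at 50 normalized counts and with quantile normalization. Between APCs and FIPs 6 changed, all higher in APCs, against 10.4% of all genes and 5.22% called higher in APCs, and the count was 4, without Hey1 and Hey2, with a pseudocount of 8. The median log2 fold change of the members in that pair was 1.17 for the 10 members and -0.01 for all genes. The pairs share libraries, so these counts are not independent of each other, and the 10 genes were chosen with results of these data known.

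3 members, Notch1, Notch3 and Heyl, were higher in APCs than in each of the other 3 populations, which held for 1.07% of all genes. 4 members, Notch1, Notch3, Jag1 and Heyl, were lower in MLCs than in each of the others, which held for 7.89% of all genes. Dll1 alone was higher in MLCs than in all others (10.6% of all genes), Dll1 and Hey2 were lower in FIPs than in all others (1.96%), and no member was higher (2.75% of all genes) or lower (0.313%) in SMCs than in all others. No member changed in all 6 pairs, which 1.4% of all genes did.

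**Figure D4:**
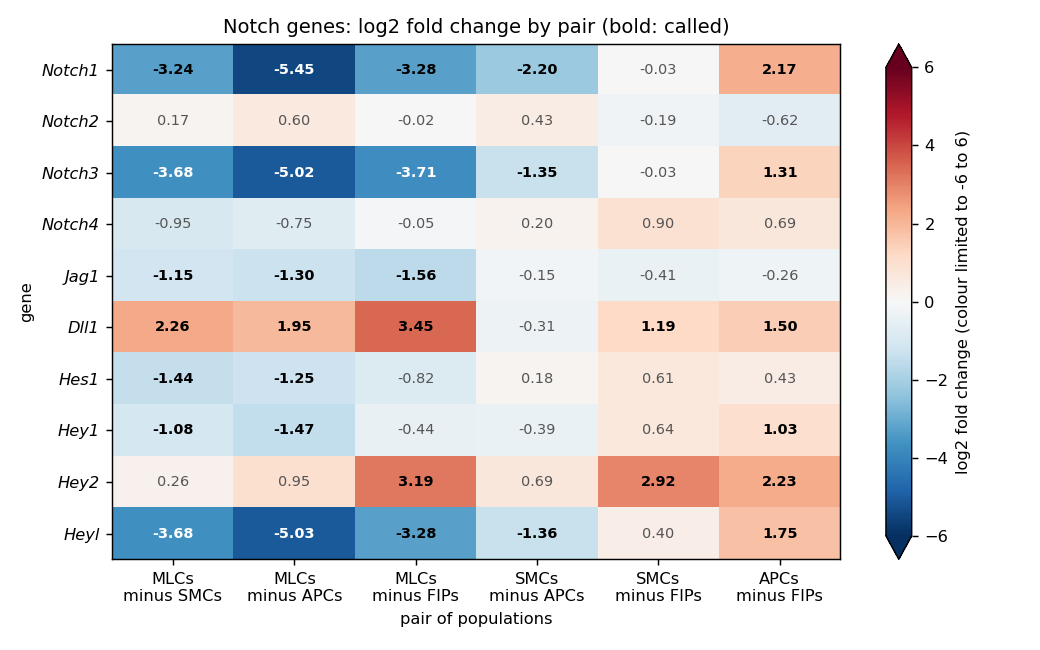
Log2 fold change (colour and number) of the 10 members (y axis) in the 6 pairs of populations (x axis), the first population minus the second, in bold where the gene changed by limma. The columns with MLCs are mostly negative. Dll1 and Hey2 are positive in each of them, and Notch2 is positive against SMCs (0.17) and APCs (0.60), not in bold. The lowest value is -5.45 for Notch1 against APCs. The APCs minus FIPs column has 6 bold values, all positive.

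APCs replicate 4 was the lowest APC library for 7 of the 10 members, the highest for 2 (Hey1 and Hey2) and inside the range for Hes1. How often it was the lowest over all genes was not counted. Some gaps were small, as for Jag1 at 0.962 times the mean of the other APC libraries. By Dixon's criterion, used further below, this library was far from the others for no member. Notch1 there was 0.617 times the mean of the other APC libraries, Notch3 0.756 times and Dll1 0.451 times, while Heyl was at 0.873 times. Of contractile genes the same library had 12.0 times the Acta2, 5.53 times the Tagln and 15.5 times the Cnn1 of the others, but 0.856 times their Myh11, and it had 1.03 times their Pparg. It was also the second shallowest, and the part of contractile cells or of depth in its Notch levels was not tested. Without it the change between APCs and FIPs ended for Hey1 and for no other member.

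The genes nearest in pattern to the members were found by the root mean square difference of centred log2(normalized count + 1) over the 16 libraries. The search covered genes with a mean of at least 100 normalized counts in their highest population. It left out predicted genes and the members themselves, so no member could be listed as nearest to another. Nearest to Notch3 were Gask1b (0.19 log2 units), Adcyap1r1, a receptor for the neuropeptide PACAP (0.27), and Col4a1, a basement membrane collagen chain (0.29). Nearest to Notch1 were S1pr3, a receptor for sphingosine 1-phosphate (0.29), Adcyap1r1 (0.40) and Cited1 (0.40). Nearest to Heyl were Adcyap1r1 (0.29), S1pr3 (0.37) and Gask1b (0.41), and nearest to Jag1 were Cyp20a1 (0.10), Slc43a3 (0.11) and Cry2, a circadian repressor (0.12). Adcyap1r1 averaged 149.8 ± 18.6 normalized counts in MLCs and 1561 ± 247 in SMCs, and 3867 ± 318 in APCs and 1218 ± 71.2 in FIPs, as mean ± SD over 4 libraries each.

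Of 60 other genes of the pathway, from ligands to nuclear partners, 53 passed the filter and 18 of these changed in at least 1 pair, 34.0% against 42.5% of all genes. They were called in 12 cases between MLCs and SMCs (22.6%), 13 between MLCs and APCs and 13 between MLCs and FIPs (24.5% each), 4 between SMCs and APCs (7.55%), 8 between SMCs and FIPs (15.1%) and 4 between APCs and FIPs (7.55%), each share near or below that of all genes.

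Among other ligands, Dner, a neuronal Notch ligand, was the one gene of the list that changed in all 6 pairs. It averaged 419.8 ± 64.3 normalized counts in SMCs, 10.9 ± 3.08 in APCs and 24.1 ± 2.49 in FIPs, and MLCs had 3 reads in all, so that SMCs were 698 times higher than MLCs with a 95% counting interval from 238 to 3388. Against APCs Dner rose in SMCs by 5.17 ± 0.31 (adjusted p = 6.94e-11). The sum of 5 Schwann cell markers was 210.4 to 274 in MLCs, 763 to 900.2 in SMCs, 704 to 745 in APCs, with 452 to 472 in FIPs, and its part in the Dner levels was not tested. Jag2, the second Jagged ligand, was higher in MLCs (77.8 ± 3.22) than in SMCs (22.2 ± 9.15), APCs (13.1 ± 9.34) and FIPs (16.3 ± 4.26), with log2 fold changes of 1.84, 2.71 and 2.22. Dlk1, a non-canonical ligand known as an inhibitor of adipocyte formation, had 5060.1 ± 533 in MLCs and 27133 ± 3343 in SMCs, and 28857 ± 3770.0 in APCs and 29505 ± 2388 in FIPs, and fell in MLCs in all 3 of their pairs.

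Of the genes that modify or cut the receptor, 1 sugar transferase stood out. Lfng, coding for Lunatic fringe, which alters how receptors respond to Delta and Jagged ligands, had 963 ± 76.2 in MLCs and 279 ± 25.4 in SMCs, and 338 ± 30.3 in APCs and 293 ± 33.9 in FIPs. It rose in MLCs by 1.79 ± 0.10 against SMCs (adjusted p = 3.69e-12), 1.51 against APCs and 1.72 against FIPs. Eogt, coding for another sugar transferase, fell in MLCs, at -1.05 against APCs and -1.30 against FIPs. Of 9 cleavage genes, Adam10, the protease of the first ligand-dependent cut, was the 1 that changed, higher in MLCs by 1.08 than in SMCs and by 1.14 than in APCs.

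In the nucleus, Rbpj, coding for the DNA-binding partner of all 4 receptors, was highest in FIPs. It averaged 987 ± 16.8 in MLCs and 1161 ± 69.8 in SMCs, and 1295 ± 85.2 in APCs and 2674 ± 102 in FIPs, so its log2 fold change was -1.05 ± 0.06 in APCs against FIPs (adjusted p = 1.92e-11) and -1.20 in SMCs against FIPs, opposite in direction to Notch1, Notch3 and Heyl in APCs against FIPs. Maml3, a Mastermind co-activator, had 16.9 ± 5.48 in MLCs and 394 ± 31.7 in SMCs, and 216 ± 20.2 in APCs and 276 ± 32.0 in FIPs, and fell in MLCs against SMCs (-4.50 ± 0.16, adjusted p = 7.66e-15). Of 12 co-repressor genes only Tle2 changed, with -1.20 in MLCs and -1.21 in SMCs against APCs.

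Of 14 genes of receptor and ligand turnover, Dtx1, coding for the ubiquitin ligase Deltex 1, changed in 5 pairs and was highest in SMCs. Levels were 7.84 ± 1.20 in MLCs and 124 ± 7.92 in SMCs, and 55.6 ± 14.4 in APCs and 30.9 ± 1.89 in FIPs. Neurl3 was highest in FIPs, at 248 ± 14.5, and Neurl1a in MLCs, at 251 ± 14.8. Of 6 other target genes 4 did not pass the filter. Nrarp, coding for a feedback inhibitor of Notch, had 36.7 ± 11.1 in MLCs and 37.3 ± 12.6 in SMCs, and 19.6 ± 6.94 in APCs and 12.3 ± 5.47 in FIPs, and rose by 1.56 ± 0.34 in MLCs and by 1.57 in SMCs against FIPs. Its APC libraries overlapped with those of FIPs and of MLCs.

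**Figure D5:**
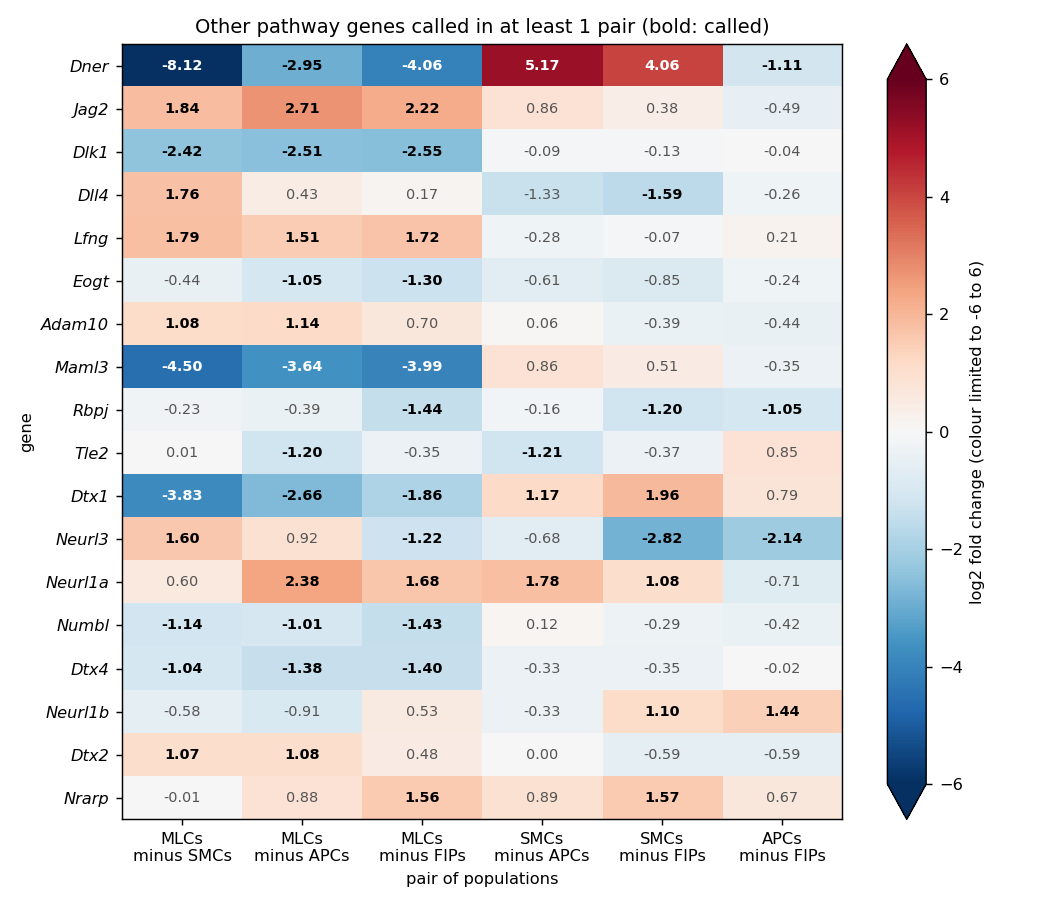
Log2 fold change (colour and number) of the 18 other pathway genes that changed in at least 1 pair (y axis) in the 6 pairs of populations (x axis), the first population minus the second, in bold where the gene changed by limma. Dner is bold in all 6 columns, where the values with MLCs rest on 3 reads in that population, and Rbpj is bold and negative in the 3 columns with FIPs.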

How the data were processed

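Libraries were prepared from total RNA using NEBNext Ultra II reagents, per the labels' protocols. The deposited table gives a signal per gene, read counts that the authors divided by 1 factor per library; the values of each library were whole multiples of 1 step (100% within 0.01 of a whole read), and dividing by the step gave the reads. Tools listed by the submitters' processing notes are DESeq2 1.6.3, featureCounts 1.4.6, HISAT2 2.0.1 and Trim Galore 0.4.1, with GRCm38 and mm10 as builds. Since strand and annotation are not stated there, overlapping genes may share reads. Columns headed SMLCs were taken as SMCs by their numbers.

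limma 3.58.1 (R 4.3.3; population as the only term, eBayes with a trend) was run on log2(value + 1) of all 16 libraries and tested on simulated data, with Benjamini-Hochberg adjustment within each pair. Genes and lists were chosen with earlier results of these data known. The genes named are the members, up to 3 changed genes of each other pathway list, the 3 nearest patterns for 4 members, and marker genes; Pdgfra, the endothelial genes, Numbl and those of the contractile list were named after their values were seen. Alternatives were other pseudocounts, filters and scalings, a replicate block, libraries left out, and, added after seeing the data, edgeR 4.0.16 and DESeq2 1.42.0 on recovered reads of 14 libraries (not FIPs replicate 1 and APCs replicate 2, whose step is so close to 1 that the whole-number check is weak), and Hey2 ratios without 1 FIP library. No library was a copy of another: over 24 within-population pairs, chi-square divided by its degrees of freedom ranged from 5.25 to 28.7.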

Additional observations from a re-analysis of the deposited data

Results flagged for a closer look

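In 112 groups of 4 libraries 8 had 1 library far from the other 3 by Dixon's criterion, where chance gives about 5.6, and none of the 8 was among the 40 groups of the members. Dlk1 was high in replicate 2 of 3 populations, at 5851 normalized counts in MLCs, 34481 in APCs and 33065 in FIPs, each with a gap to the next library that took most of the range. In SMCs replicate 2 was also the highest (30237), close to the next library (29807). Eogt was low in FIPs replicate 2 (451). Rbpj was low in MLCs replicate 4 (962). Tle2 was high in MLCs replicate 1 (205) and low in FIPs replicate 3 (193). Numbl was low in APCs replicate 4 (2002).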

How the results depend on the processing

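Of 60 results for a member in a pair, 52 kept their side of the threshold under every alternative that gave them a value (27 were run), and no changed member turned its direction. The exceptions were Hey1 in 2 pairs, Notch4 in 3, and Dll1, Hes1 and Hey2 in 1 each. Members that did not change had the other sign under some alternative in 9 results. Between SMCs and FIPs the number of changed members was 1 in place of 2 with a pseudocount of 8, with a filter at 50 normalized counts (which Hey2 does not pass) and with quantile normalization, and leaving out 1 library gave 2 to 3. The other pathway genes changed between SMCs and APCs numbered 4 to 7 without 1 library, 7 without SMCs replicate 4. Scaling to equal totals moved the median of all genes by 0.33 for MLCs against FIPs, 0.22 for SMCs against FIPs and 0.24 for APCs against FIPs, and the share of changed genes higher in the first population to 71.4%, 82.8% and 67.5%, in place of 59.8%, 74.3% and 50.1%. Quantile normalization made it 58.0% in place of 78.0% for SMCs against APCs and 56.0% in place of 74.3% for SMCs against FIPs. The labels give the replicate numbers no meaning. Same-numbered libraries deviated together with a correlation over 0.1 in 6 of 24 pairs (median 0.059), differently numbered ones in 1 of 72 (median -0.019), and 8 of 16 libraries correlated best with their own number, a hint of a tie from the data that the design does not give. With a replicate block the members changed were 7, 7, 6, 3, 2 and 6 over the pairs in the order above, as without it. edgeR and DESeq2, on recovered reads of 14 libraries, gave the same 6 counts. Depth limits Hey2 in FIPs (10 reads) and Dner in MLCs (3 reads).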
